A study of Homo sapiens with 10 samples.

Results

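The sites described here are 3 regions of the human genome (build hg19) at the genes EWSR1, RHBDD3, UBE2B and RANGAP1, where HSF1 peaks were listed in cells that lack FBXW7 and in no list of unmodified cells. They are chr22:29664109-29664977, assigned to EWSR1 and RHBDD3, which lie head to head, chr5:133706413-133707057, assigned to UBE2B, and chr22:41682114-41682721, assigned to RANGAP1. The sites were chosen by their peak scores in the KO lists and by the lack of a peak in the WT lists, so both are given below as a description, with no test. The intervals came with their gene names, and positions were not checked against an hg19 annotation, so whether each peak lies upstream of the gene, in its first exon or in its first intron was not analysed here. Joining overlapping peaks of all 6 HSF1 lists gave 6597 regions. The 3 sites are part of 355 regions with a peak in every KO list.

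HSF1 was mapped by chromatin immunoprecipitation and sequencing in HCT116, an established human colon cancer cell line. Wild-type (WT) cells and cells without FBXW7 (KO) were kept untreated or heated to 42 °C for 1 h, and 5 µg of an antibody to human HSF1 was used per precipitation. There were 2 heat shock libraries and 1 untreated library of each line, and each was set against the input DNA of its own line and condition. Where 3 values of a line follow each other below, they stand in the order heat shock replicate 1, heat shock replicate 2, untreated. The lists held 1566, 3257 and 2866 peaks in KO and 225, 131 and 79 in WT. Read depth is unknown, and the labels do not say that replicates came from separate cultures or how many KO clones were used.

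HSF1 is held inactive in unstressed cells. On heat shock it forms trimers that bind heat shock elements, arrays of the 3-base unit GAA and its reverse complement TTC, and it drives genes of chaperones, which help proteins fold. FBXW7 is the substrate-binding subunit of a ubiquitin ligase that marks phosphorylated proteins for degradation, and HSF1 is among the proteins reported as its substrates. None of the genes at the 3 sites codes for a chaperone. EWSR1 codes for an RNA-binding protein of the FET family, known for its gene fusions in Ewing sarcoma. RHBDD3 codes for a membrane protein with a rhomboid domain. UBE2B codes for a ubiquitin-conjugating enzyme (E2) of the RAD6 type, which acts in DNA damage tolerance and in ubiquitination of histone H2B. RANGAP1 codes for the protein that activates the GTPase Ran in nuclear transport, and is a classic target of SUMO modification.

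The promoter sequences are shown because the letters of a heat shock element were not part of how the sites were chosen. RefSeq promoter windows of GRCh38.p14, each reaching from 250 bases before a transcription start to 50 bases after it, were matched by symbol to EWSR1 (1 window), RHBDD3 (2) and RANGAP1 (2). UBE2B had no window, so its promoter was not searched. This build differs from that of the peaks, so a window is not shown to lie under a peak. The 2 RANGAP1 starts, at 41286187 and 41302369, lie much further apart than the 608 bp of the RANGAP1 region. At most 1 of these 2 windows can therefore lie at the site. EWSR1 starts 105 bp from the nearer RHBDD3 start, on the opposite strand, and their windows share 204 bases. Below are the 104 bases between these starts, read on the plus strand (chr22:29268164-29268267), the 250 bases before each RANGAP1 start on the minus strand (chr22:41286188-41286437 and chr22:41302370-41302619) and, for comparison, 30 bases of the window of the chaperonin gene HSPD1 (chr2:197500061-197500090, minus strand). All run 5′ to 3′, and capitals mark each GAA or TTC.
EWSR1 to RHBDD3: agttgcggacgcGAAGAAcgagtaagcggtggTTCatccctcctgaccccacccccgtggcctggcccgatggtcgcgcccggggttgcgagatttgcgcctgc
RANGAP1, downstream start: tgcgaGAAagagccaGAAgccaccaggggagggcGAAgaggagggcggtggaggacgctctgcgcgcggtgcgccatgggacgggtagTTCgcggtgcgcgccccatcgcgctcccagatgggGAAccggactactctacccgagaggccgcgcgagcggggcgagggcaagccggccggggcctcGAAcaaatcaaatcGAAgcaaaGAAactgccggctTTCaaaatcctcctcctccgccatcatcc
RANGAP1, upstream start: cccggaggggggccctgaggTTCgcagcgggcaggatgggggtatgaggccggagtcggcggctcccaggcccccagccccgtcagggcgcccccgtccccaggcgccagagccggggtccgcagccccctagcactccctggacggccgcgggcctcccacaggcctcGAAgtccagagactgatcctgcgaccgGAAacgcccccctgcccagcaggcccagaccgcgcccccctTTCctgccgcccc
HSPD1: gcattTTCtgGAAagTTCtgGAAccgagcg

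In the HSPD1 stretch, 4 units alternate with 2 bases between neighbours. In the EWSR1 and RANGAP1 sequences the units lie at varied distances, 2 of them back to back at EWSR1. None faces another with 2 bases between. A pair of facing units, GAANNTTC or TTCNNGAA, was found in 0 of the 5 windows of EWSR1, RHBDD3 and RANGAP1 on either strand. It was present in 13.5% of all 35116 RefSeq windows and in 51.4% of the 35 chaperone windows. Counted by gene, at least 1 window held it in 16.2% of all 27305 genes and in 17 of the 23 chaperone genes with a window. An array of 3 units, GAANNTTCNNGAA or TTCNNGAANNTTC, which holds 2 overlapping pairs, was in 0 of the 5 windows, in 0.490% of all windows and in 22.9% of the chaperone windows. By gene it was in 0.608% of all genes and in 8 of the 23 chaperone genes, among them HSPD1, HSPA8, HSP90AA1 and DNAJA1. At best, 6 of the 9 fixed letters of the 3-unit array were matched in the EWSR1 and RHBDD3 windows and 7 in the downstream RANGAP1 window. A match of 7 or more was seen in 42.6% of all windows. The windows of HSPE1 and HSPH1, both chaperone genes, held no pair either. A lack of matches says that these letters are not in these windows and nothing about HSF1.

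At EWSR1 and RHBDD3 the KO peak was among the highest of each KO list. Its score, the authors' own peak value, was 703, 1553 and 1199. It ranked 13, 15 and 17 (mean 15, SD 2, n = 3 lists), within the top 0.830, 0.461 and 0.593% of their peaks. How scores compare across libraries is not stated, so sites are compared within a list. At UBE2B the scores were 339, 562 and 1061, and the ranks were 53, 69 and 23 (mean 48.3, SD 23.4). The untreated library thus held the best UBE2B rank, and both heat shock libraries placed it lower. At RANGAP1 the scores were 289, 383 and 668 and the ranks 68, 109 and 56 (mean 77.7, SD 27.8). The order of the 3 sites was the same in each KO list, but the ranks of UBE2B (23 to 69) and RANGAP1 (56 to 109) overlapped across lists, while those of EWSR1 lay apart from both.

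None of the WT lists held a peak at any of the 3 sites, which is how they were chosen. The nearest WT peak lay 495 kb from the EWSR1 site and 429 kb from the RANGAP1 site in each WT list. For UBE2B it lay 26697, 44305 and 1840 kb away. The lowest scores listed in WT were 50.26, 50.02 and 50.44. Weaker peaks are not listed, and the lack of a listed peak does not show that HSF1 was absent. Of the 355 regions in all 3 KO lists, 65.9% had no WT peak (234), so the lack of one is common in the set. The count was 473 of 609 regions without KO heat shock replicate 1 and 131 of 173 with each list held to scores of at least 100. Among the 65 regions with a mean KO rank as good as that of RANGAP1 or better, 16.9% had none (11, the 3 sites included). Both shares describe the set from which the sites were chosen, and nothing is read from them about the sites.

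WT lists held 121 of the 355 regions, and 37 of these were in all 3 WT lists. Their median rank in the KO lists was 90, 80 and 87. The EWSR1 site ranked above 110, 107 and 105 of the 121, that is 90.9, 88.4 and 86.8%, with exact Clopper-Pearson 95% intervals of 84.3 to 95.4%, 81.3 to 93.5% and 79.4 to 92.2%. The UBE2B site ranked above 77, 66 and 100 of them (63.6, 54.5 and 82.6%, with intervals of 54.4 to 72.2%, 45.2 to 63.6% and 74.7 to 88.9%). The RANGAP1 site ranked above 71, 46 and 79 (58.7, 38.0 and 65.3%, with intervals of 49.4 to 67.6%, 29.3 to 47.3% and 56.1 to 73.7%). It was thus below the median of the WT-held regions in KO heat shock replicate 2 and above it in the other lists. In score, the EWSR1 peak was 3.05, 3.10 and 2.71 times the median of the WT-held regions of the same list. UBE2B was at 1.47, 1.12 and 2.40 times that median, and RANGAP1 at 1.26, 0.765 and 1.51 times. The scale of the score is not stated, so a ratio of scores, here and below, is not a fold of enrichment or of HSF1 binding. The intervals cover counting error only. The 121 regions include some on chromosome Y. Over the 113 on chromosomes 1 to 22 and X, the shares were 90.3, 87.6 and 85.8% for EWSR1. They were 61.1, 51.3 and 81.4% for UBE2B and 55.8, 33.6 and 62.8% for RANGAP1. The shares fell further when WT presence was defined more strictly. Against the 37 regions in all 3 WT lists they were 75.7, 64.9 and 64.9% for EWSR1, 16.2, 18.9 and 51.4% for UBE2B and 16.2, 10.8 and 21.6% for RANGAP1.

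**Figure D1:**
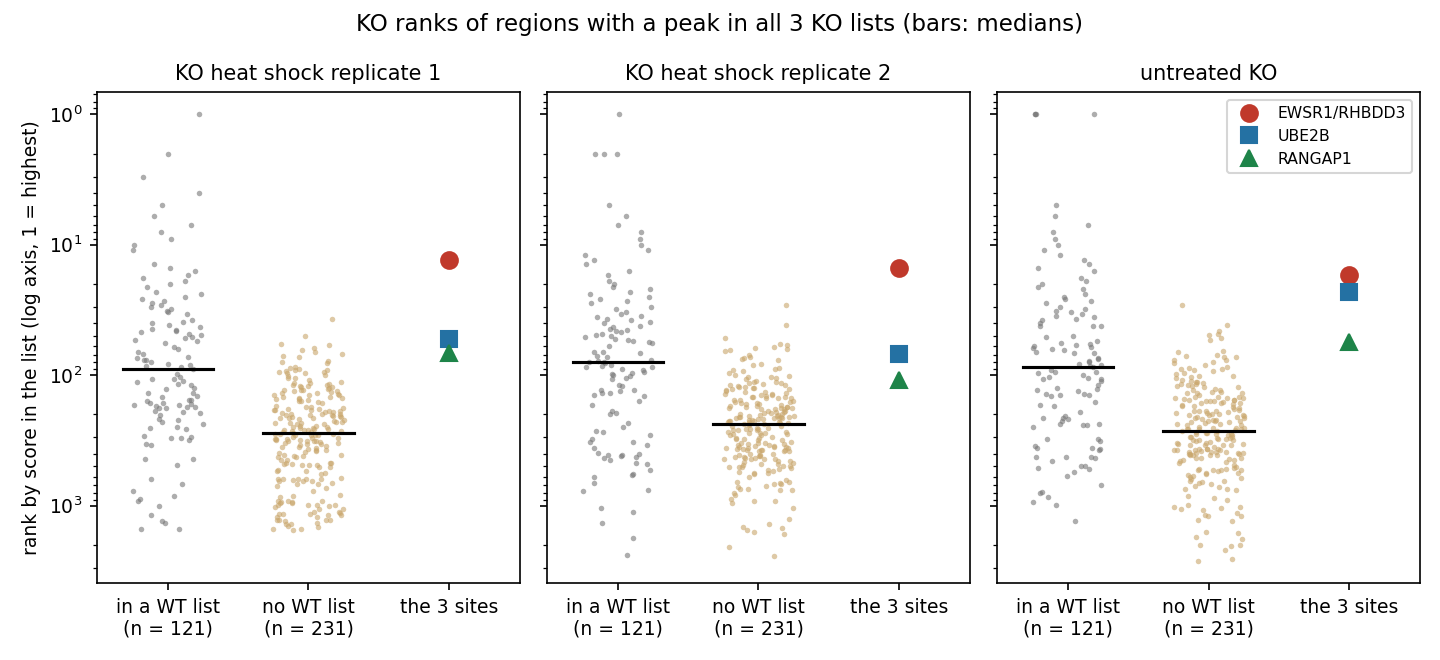
Rank by score (log axis, 1 is the highest) in each KO list for the 121 regions that a WT list also holds, the other 231 regions with no WT peak and the 3 sites; bars are medians. EWSR1/RHBDD3 sits at ranks 13 to 17 and above every other region with no WT peak. KO score and WT absence chose the sites, so this is a description only. RANGAP1 lies below the median of the WT-held regions in KO heat shock replicate 2 and above it in the other lists.

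The peaks ranked above each site were then split by whether WT lists held their region. Of the 12, 14 and 16 peaks that scored above EWSR1, each lay in a region that a WT list also held. Above UBE2B in untreated KO lay 22 peaks, and the EWSR1 peak was the 1 among them without a WT counterpart. In KO heat shock replicates 1 and 2, 4 of 52 and 11 of 68 peaks above UBE2B had none. Above RANGAP1 the numbers were 11 of 67, 30 of 108 and 9 of 55 in replicates 1 and 2 and untreated KO. Ordered by mean KO rank, EWSR1 stood at position 13 of the 355 regions, tied with chr11:122932122-122933742, and was the first without a WT peak. The second was chr17:62703132-62703813 at position 37, UBE2B followed at 41, and RANGAP1 came at 65 as the eleventh. The sites were chosen by KO score and WT absence, so these counts and positions are a description only. Over the 355 regions, 65.9% had no WT peak, and the share over the peaks of whole lists was not computed.

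**Figure D2:**
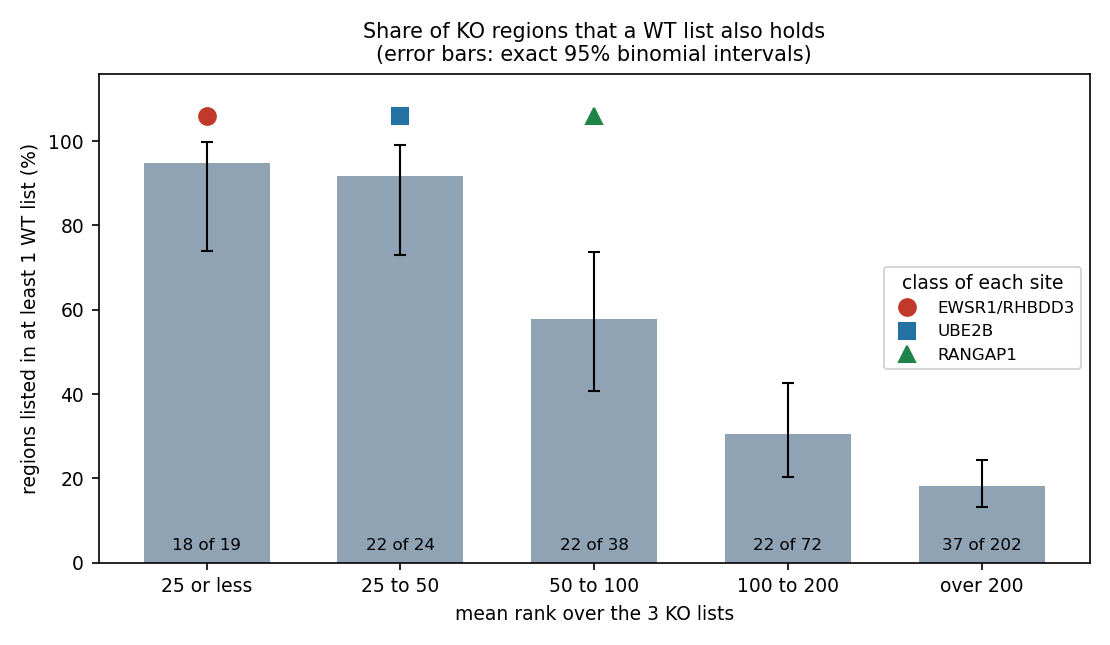
Share of the 355 regions in all 3 KO lists that at least 1 WT list also holds, by class of mean KO rank, with exact 95% binomial intervals; symbols above the bars mark the class of each site. The share was 94.7% (18 of 19) in the class of EWSR1/RHBDD3, 91.7% (22 of 24) in that of UBE2B and 57.9% (22 of 38) in that of RANGAP1. Each site is counted in its class as a region with no WT peak, which is how it was chosen.

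As the plot of shares by rank shows, regions at the KO ranks of EWSR1 and UBE2B were mostly listed in WT, and regions at the rank of RANGAP1 less uniformly so. In the 2 lower classes, with mean ranks of 100 to 200 and over 200, WT lists held 30.6% (22 of 72) and 18.3% (37 of 202). The sites themselves are counted in these classes. EWSR1 was the 1 region of its class with no WT peak, and UBE2B was 1 of 2. KO score and WT absence were used to choose the sites, so the shares are a description only. The classes share libraries and were not tested against each other.

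The WT-held regions that stood next to each site in mean KO rank give the scores that WT lists had at such places. For EWSR1, 3 above and 3 below (1 of them tied) had 18 WT peaks with scores of 53.7 to 290, and 6 of the 6 were in all 3 WT lists. The tied region, chr11:122932122-122933742, ranked 23, 11 and 11 in KO and scored 66.35, 53.7 and 164 in WT. Its WT heat shock scores were thus near the lower limit of the lists, and its untreated score was well above. For UBE2B, the 6 neighbours had 9 WT peaks with scores of 51.6 to 119, and none was in all 3 WT lists. For RANGAP1, there were 10 WT peaks with scores of 50.6 to 129, again with no region in all 3. WT scores under 100 made up 7 of 18 beside EWSR1, 7 of 9 beside UBE2B and 8 of 10 beside RANGAP1. The best WT score of a neighbour was 131 to 290 beside EWSR1, 51.55 to 119 beside UBE2B and 55.9 to 129 beside RANGAP1.

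Chromosome 22 allowed a comparison with sites of the same chromosome. The region chr22:29167982-29169461, which held the nearest WT peak to EWSR1, scored 504, 1017 and 1185 in KO. These values were below those of EWSR1 in each list. It was listed in WT at scores of 114, 89.1 and 83.9. The region chr22:41251746-41253536, nearest to RANGAP1, scored 259, 698 and 750 in KO and 117, 98.2 and 154 in WT. In KO heat shock replicate 1 it lay below RANGAP1 and in the other KO lists above it, and below EWSR1 in all 3. The WT lists held 3, 2 and 2 peaks on chromosome 22 and 3, 2 and 1 on chromosome 5, so there were few sites to compare. The highest-ranked WT-held region of chromosome 5, chr5:10310082-10311503, was below UBE2B in each KO list (ranks 76, 81 and 78), and was listed in both WT heat shock libraries (scores 111 and 75.2) and not in untreated WT.

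**Figure D3:**
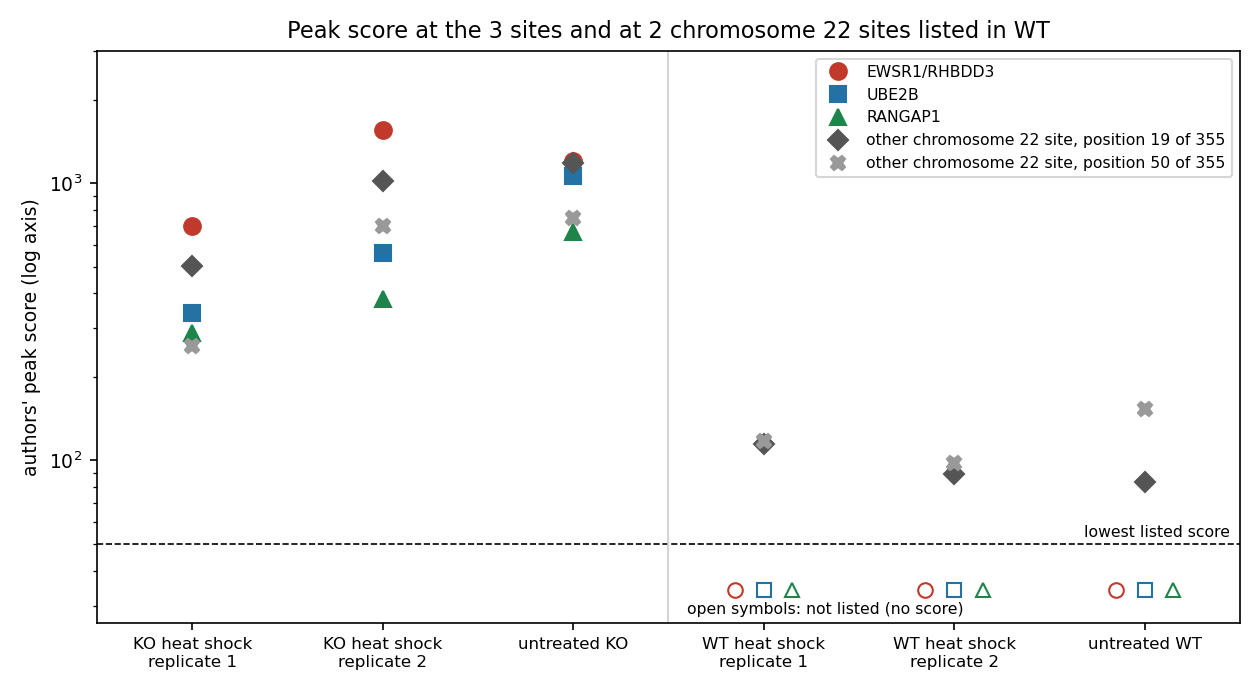
The authors' peak score (log axis) in each of the 6 lists for the 3 sites and for 2 other chromosome 22 regions, chr22:29167982-29169461 (position 19 of 355) and chr22:41251746-41253536 (position 50). Open symbols mark lists with no peak and carry no score. Another WT-held region of the chromosome, chr22:18879752-18880542 (position 206, in 1 WT list at a score of 50.86), is not shown. EWSR1/RHBDD3 lies above both regions in each KO list. They are listed in all 3 WT lists and it is in none, which is how the 3 sites were chosen, so the contrast is a description only.

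Position and width of the peaks were not used in the choice. The 3 KO peaks of EWSR1 had centres within 52.5 bp of each other, those of UBE2B within 28 bp, and those of RANGAP1 within 105 bp. The median of this spread was 60.5 bp over the 121 WT-held regions, of which 49, 15 and 91 had a smaller spread than EWSR1, UBE2B and RANGAP1. The wider spread of RANGAP1 went with its outline: in KO heat shock replicate 2 it was listed as 2 peaks 5 bp apart, a main peak of 427 bp and a weak one (score 50.65, rank 3058), where untreated KO had 1 peak of 579 bp. Peak widths at EWSR1 were 646, 869 and 748 bp, wider than 112, 112 and 108 of the 121 WT-held regions. UBE2B measured 492, 645 and 572 bp, wider than 92, 83 and 80 of them. RANGAP1 measured 422, 427 and 579 bp, wider than 79, 36 and 82. The median widths of the WT-held regions in the KO lists were 346, 512 and 516 bp. Width comes from the same peak call as the score, so it is given as a description. Over whole lists, KO peaks had median widths of 155, 181 and 173 bp, those of WT measured 1468, 1443 and 1656 bp, and the narrowest WT peak measured 561 bp. The lists thus differed in peak width as well as in number between the lines, and the part of this in the lack of WT peaks was not tested.

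**Figure D4:**
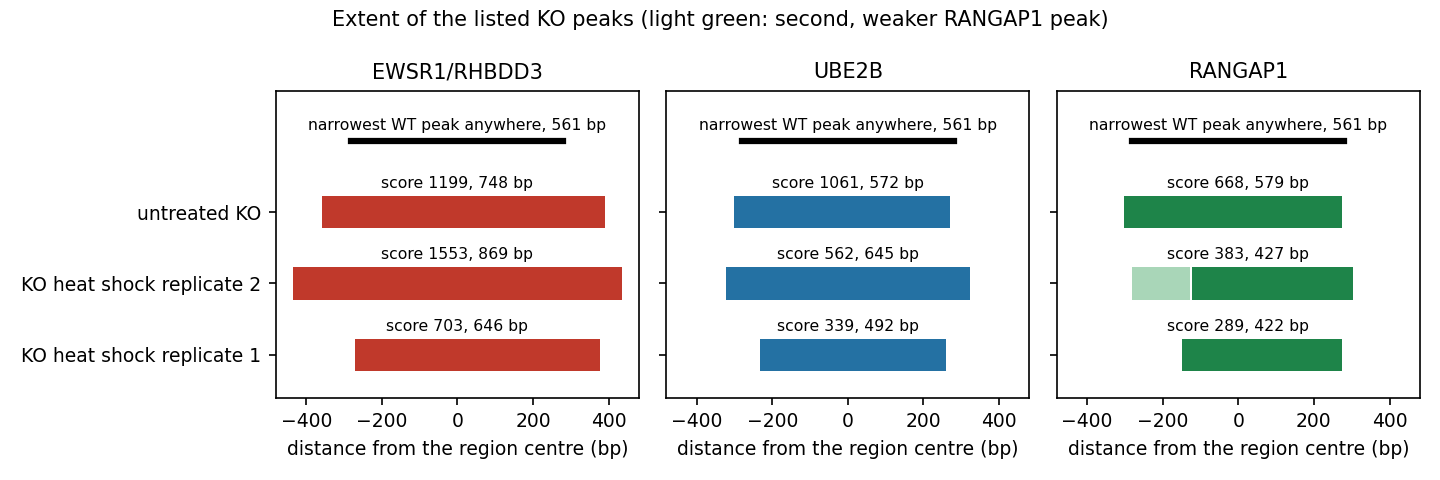
Extent of each listed KO peak at the 3 sites, as distance from the centre of the region in bp, with its score and width; the black bar is the width of the narrowest WT peak of any list, 561 bp. The KO peaks of each site overlap closely, and RANGAP1 is split into a main and a weak peak in KO heat shock replicate 2.

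No other KO peak lay close to the sites. The nearest was 495, 224 and 53.6 kb from EWSR1, 16.7, 249 and 515 kb from UBE2B and 429, 247 and 365 kb from RANGAP1. Apart from the chromosome 22 regions described above, at 495 and 429 kb in KO heat shock replicate 1, these nearest peaks had scores of 50.71 to 63.8, near the lowest score listed, and ranks of 1157 to 2884.

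Heat shock and untreated KO cells were set side by side at each site, with 2 heat shock libraries against 1 untreated library and therefore no test. Ratios of scores are given beside those of the WT-held regions from the same libraries. The EWSR1 score was 0.586 and 1.30 times the untreated score in heat shock replicates 1 and 2, where the WT-held regions had medians of 0.491 and 1.04. For UBE2B the ratios were 0.319 and 0.529, and for RANGAP1 0.433 and 0.573. In replicate 2, 4 of the 121 WT-held regions had a lower ratio than UBE2B and 4 a lower one than RANGAP1, while in replicate 1 there were 15 and 39. Ratios spread more widely on both sides without a WT peak. In replicate 2 the 10th and 90th percentiles were 0.744 and 1.64 over the WT-held regions. Over the other 231 regions with no WT peak they were 0.579 and 2.17, with a median of 1.03. UBE2B and RANGAP1 thus lay below the median ratio of the WT-held regions in both replicates, and EWSR1 lay above it in both. A rank in untreated KO better than in both heat shock lists, as at UBE2B and RANGAP1, was also found at 47 of the 121 WT-held regions and at 84 of the other 231 regions with no WT peak. Both ratios share the untreated library, whose scores were among those that chose the sites, so the ratios are no independent measure of heat shock at these genes.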

How the data were processed

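HSF1 ChIP-seq peak lists of 6 HCT116 libraries were used; the 4 input libraries were not analysed here. Per the submitters' processing notes, the tools were CASAVA, Bowtie 0.12.7 and MACS 1.4.2 and the build hg19; their settings are not given in the sources used here. Each list gives chromosome, start, end, name and a score, the authors' deposited peak score, whose scale across libraries is not stated; per the lists' own labels, each pairs 1 library with the matching input.

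Starts were converted to 1-based positions. Peaks sharing at least 1 bp were joined into regions, which numbered 6597 with bedtools 2.31.1 as well. A region took its highest peak in each list, ranked by score with ties given the better rank. Region building was tested on simulated data (20 of 20 sets equalled bedtools). Motifs were searched in RefSeq windows of GRCh38.p14. No fit or test was run, since the choice of the sites used scores and WT absence. Regions set beside the sites were the nearest 3 WT-held ones on each side by mean KO rank, the first 10 with no WT peak and those on chromosomes 22 and 5; those on chromosomes 22 and 5, and the HSPD1 stretch, were chosen after values were seen. The sites and lists were chosen with earlier results of these data known. Python 3.11.15, numpy 2.4.6, pandas 2.3.3, scipy 1.17.1 and matplotlib 3.10.9 were used.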

Additional observations from a re-analysis of the deposited data

How the results depend on the processing

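No WT list had a peak within 1000 or 5000 bp of any of the 3 sites. The nearest WT peak to any of them lay about 429 kb away, so this outcome was fixed in advance. The counting intervals served as a yardstick here and do not measure variation between libraries. Of 84 recomputed shares of WT-held regions ranked below a site, 55 stayed within the counting interval of the share as reported. The rest depended on which regions count as held by WT (values in the order KO heat shock replicates 1 and 2, untreated KO). With a peak in all 3 WT lists (37 regions) the shares were 75.7, 64.9 and 64.9% for EWSR1, 16.2, 18.9 and 51.4% for UBE2B and 16.2, 10.8 and 21.6% for RANGAP1. With the 2 heat-shocked WT libraries both required (55) they were 81.8, 74.5 and 72.7%, 34.5, 29.1 and 63.6%, and 32.7, 20 and 40%. With WT scores of at least 100 (54) they were 83.3, 75.9 and 74.1% for EWSR1, 42.6, 37.0 and 66.7% for UBE2B, and 38.9 and 44.4% for RANGAP1 in replicate 1 and untreated KO. EWSR1 ranked above most WT-held regions under each of these definitions, UBE2B in untreated KO alone, and RANGAP1 in no list. The cause was not tested. Leaving out 1 heat shock library moved RANGAP1 shares to 48.9 to 59.7%, 28.4 to 44.9% and 55.7 to 69.1%, the lowest without WT replicate 1. The 234 regions of all KO and no WT lists became 131 at scores of at least 100, and 247 to 473 with a library left out, the highest without KO replicate 1. The 3 sites were among them each time. That was fixed in advance, as they have no WT peak and KO scores of 289 or more. Without the widest 5% of peaks, EWSR1 and UBE2B fell out of every KO list and RANGAP1 out of untreated KO, and RANGAP1 ranked 25 and 24 in the heat shock lists. No paired analysis was possible because no result came from a test.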

Other observations

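Relatives of the genes at the 3 sites were searched for the same letters. Of the E2 enzyme genes, 12 of 16 had a RefSeq window, and none of their 18 windows held a pair of facing units; UBE2A, the close relative of UBE2B, was among them. Of the FET family genes 1 of 3 had a window and of the rhomboid relatives 2 of 3, with no pair in any. Of 10 genes of Ran transport and SUMO modification, 6 had a window and 1 held a pair, XPO1, which codes for the main nuclear export receptor. XPO1 also held an array of 3 units. A pair was in 16.2% of all genes and 13.5% of all windows, so 1 of 6 genes is close to the share over all genes. Whether HSF1 peaks lie at these genes was not analysed here.

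Other regions without a WT peak stood between UBE2B and RANGAP1 in mean KO rank. They were chr6:31794931-31795650 (KO ranks 95, 29 and 52, heat-shocked libraries first), chr7:1199688-1200282 (72, 59 and 46), chr1:174968915-174969476 (50, 63 and 76), chr17:41400071-41401297 (89, 64 and 49), chr7:73417522-73418291 (58, 73 and 73), chr11:65769504-65770245 (105, 62 and 41) and chr5:10249515-10250710 (118, 41 and 65).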
